A study of Ricinus communis with 6 samples.

Results

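In the internode of the castor bean (Ricinus communis), 116 of 18875 gene rows had a higher transcript level in every library of the dwarf variety than in any library of the high-stalk variety by a set margin. The members were chosen on measured values: the lowest of the 3 dwarf libraries had to reach 2 FPKM, and that lowest value plus 1 had to be at least 1.5 times the highest high-stalk value plus 1. FPKM counts sequenced fragments relative to transcript length and to the total mapped in a library, and the quotient of these sums is called the ratio below. A ratio of 1.5 therefore sets a distance between the nearest libraries of the varieties, not between their means. Because the level in dwarf against high-stalk libraries selected the genes, that difference is described here without any test.

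Dwarf-stalk plants of genotype 071113 gave D1, D2 and D3, while L1, L2 and L3 came from the taller genotype, the high-stalk Zhuansihao (spelled Zhansihao in some of the labels). Poly(A) RNA was sequenced from the 5th internode, on the main stem of field-grown plants in rapid growth, with 8 to 10 leaves, and about 6 plants were dissected. The labels give no treatment and set the groups apart by variety, and the varieties differ at an unknown number of loci. The study compared them to ask which genes go along with internode elongation. In RNA from a whole internode, a change in the share of a cell type and a change in the transcripts per cell cannot be told apart. The tissue label was not checked, since the 34 genes that the study names by ID include no defining markers of an internode and the other IDs have no description in the sources used here.

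Only 2 of the 116 genes carry a name in the sources used here, CLPB1 (LOC8284441) and HSP7C (LOC8265956). Both belong to the protein quality control system. ClpB proteins of the HSP100 family are ring-shaped ATPases that pull polypeptides out of protein aggregates, and proteins of the HSP70 family, to which the constitutive HSC70 type belongs, bind exposed stretches of unfolded chains and hand aggregated substrates to ClpB. In plants, HSP100 and many HSP70 genes are known for strong induction by heat, and HSP100 for its role in acquired heat tolerance. The other 114 genes are given by their ID, without a role. The castor RefSeq table lists all 116 as protein-coding.

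Dwarf library D2 stood apart from D1 and D3 and lay nearer to every high-stalk library, most of all to L1. Differences between libraries were taken on the log2(FPKM + 1) scale over the 14947 genes with a mean of at least 2 FPKM. Their median size was 0.22 between D2 and L1, 0.34 between D2 and L3 and 0.39 between D2 and L2. It was 0.51 between D2 and D1, 0.50 between D2 and D3 and 0.14 between D1 and D3. High-stalk libraries lay 0.20 to 0.25 from each other and 0.31 to 0.43 from D1 and D3. The study left D2 out of its own comparison of the varieties. D2 is kept here under its dwarf label, on which the choice of members and every mean of 3 dwarf libraries rest, and whether that label holds was not tested. Among the 116 genes the distance from D2 to L1 was 1.14 and that from D2 to D1 was 0.56, which the rule in part fixes because it asks for D2 to lie above L1. Library sums were 585381 to 600050 FPKM, and depth relative to D1, read from repeated ratios of low values, was 0.868 in L2 and between 0.937 and 1.08 in the others.

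The rule picked 0.615% of all rows. The same rule turned round, asking for every dwarf library to be lower, picked 68 rows or 0.360%. Which direction had more genes depended on the libraries: 928 were higher and 1038 lower without D2, and 216 higher and 257 lower without L1. Without any margin, every dwarf library lay above every high-stalk library in 1407 rows (7.45%) and below every one in 1322 rows (7.00%). Over all genes, limma on all 6 libraries called 0 of 16236 genes higher in the dwarf variety (0%) and 2 lower (0.0123%) with Benjamini-Hochberg adjustment, an adjusted p below 0.05 and a log2 fold change beyond 2 in either direction. At an unadjusted p below 0.05 there were 834 higher and 677 lower genes. Without D2 the calls numbered 214 higher and 189 lower. No member was called over all 6 libraries, and since that fit used the same contrast as the rule, it is given only as background.

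**Figure D1:**
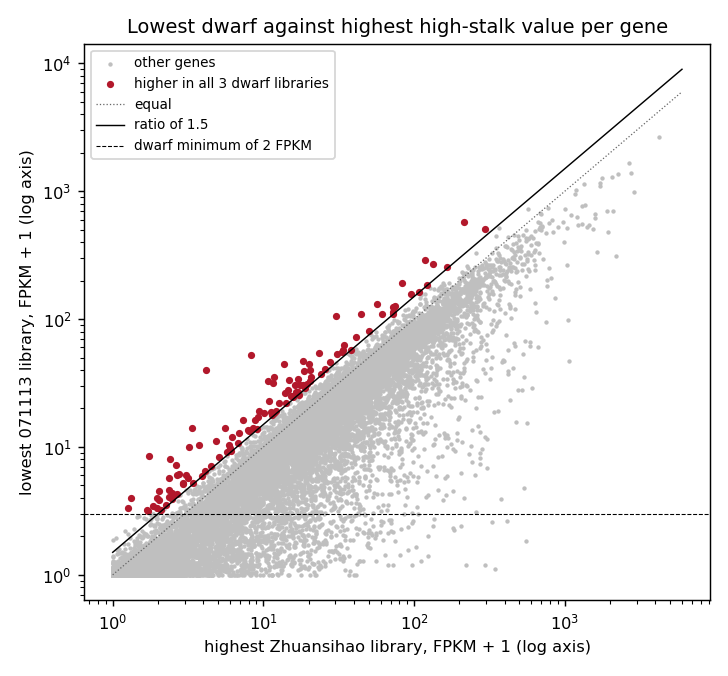
Lowest dwarf value against highest high-stalk value for each gene, as FPKM + 1 on log axes. Red points are the 116 members, above the line for a ratio of 1.5 and above a dwarf minimum of 2 FPKM; grey points are all other genes.

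Which pair of dwarf libraries was asked for mattered a great deal. With D1 and D3 alone, 928 rows (4.92%) met the rule, and the 116 genes were 12.5% of them. D2 lay above every high-stalk library in 363 of those 928 rows (39.1%) and below every one in 269 (29.0%). With D1 and D2 alone 143 rows (0.758%) met the rule, and with D2 and D3 alone 147 rows (0.779%). The 116 genes were 81.1% of the former and 78.9% of the latter, and the remaining library lay above every high-stalk library in 136 of the 143 and in 143 of the 147. D2 was thus the library that kept most other candidates out of the set.

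CLPB1 had the widest distance between the variety means and also a wide spread inside the dwarf variety. Its level was 384, 51.8 and 387 FPKM in D1, D2 and D3 and 5.53, 6.10 and 7.24 in L1, L2 and L3. D1 and D3 were nearly equal, D2 had 13.4% of their mean, and the groups did not overlap, as the rule requires of every member. The mean was 274 ± 193 FPKM (SD, n = 3) in 071113 and 6.29 ± 0.869 (SD, n = 3) in Zhuansihao, a fold of 43.6 between the means, the largest of the 116 genes. Its ratio was 6.41 with all libraries and 46.7 without D2.

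HSP7C had the highest dwarf mean of all 116 genes, although LOC8287907 was slightly higher in D2. It stood at 944 FPKM in D1, 570.1 in D2 and 857 in D3, and at 122 in L1, 109 in L2 and 215 in L3. D2 was again the lowest dwarf library, with 63.3% of the mean of D1 and D3, and L3 was the highest high-stalk library. The means were 790.3 ± 195.6 FPKM and 149 ± 57.9 (SD, n = 3 each), a fold of 5.32. The ratio of 2.64 became 3.97 without D2 and 4.64 without L3. HSP70 genes form a family of similar sequences, and how the authors assigned reads shared by copies is not given in the sources used here, so the HSP7C value may include reads of relatives.

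Both chaperones were thus low in Zhuansihao relative to 071113, as the rule requires, but on different scales. HSP7C already had over 100 FPKM in every high-stalk library, while CLPB1 had under 10. The drop in D2 relative to D1 and D3 was also larger for CLPB1.

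The largest ratio, 9.47, belonged to LOC8264605. Its level was 38.7, 66.9 and 125 FPKM in D1, D2 and D3 and 2.90, 0.284 and 3.19 in L1, L2 and L3. Here D2 lay between the other dwarf libraries, and D3 had more than 3 times the level of D1. The means were 76.8 ± 44.0 FPKM and 2.12 ± 1.60 (SD, n = 3 each), a fold of 36.2.

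LOC8265467 followed CLPB1 in ratio (4.85), with 24.2, 7.46 and 19.8 FPKM in D1, D2 and D3 and 0.430, 0.322 and 0.743 in L1, L2 and L3. Every high-stalk library was under 1 FPKM, and D2 was the lowest dwarf library. LOC8262052 (ratio 4.16) had the opposite order in the dwarf variety, with 13.1 FPKM in D1, 23.3 in D2 and 19.3 in D3. Its high-stalk values were 0.417 in L1, a listed 0 in L2 and 2.38 in L3, so most of the high-stalk level came from L3.

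Among the next ratios, LOC8279802 (3.52) was a strongly expressed gene with 257 FPKM in D1, 105 in D2 and 233 in D3, and 24.2, 19.6 and 29.1 in L1, L2 and L3. Its groups lay far apart even at D2. LOC8288057 (3.35) was low throughout, with 7.10, 11.0 and 22.7 FPKM in D1, D2 and D3 and 1.42, 0.158 and 1.01 in L1, L2 and L3. D3 had more than 3 times the level of D1 in this gene too.

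LOC8266409 (3.27) had even dwarf values of 43.8 FPKM in D1, 48.7 in D2 and 46.9 in D3, and uneven high-stalk values of 6.44 in L1, 2.53 in L2 and 12.7 in L3. LOC8269798 (3.13) was even within both varieties, at 11.4, 8.96 and 10.3 FPKM in D1, D2 and D3 and 1.80, 1.60 and 2.19 in L1, L2 and L3. In these genes D2 behaved like D1 and D3, to within 20% of their mean. LOC8260420 (3.05) did not share this, with 82.2 FPKM in D1, 31.8 in D2 and 75.2 in D3, and 9.77, 7.94 and 9.25 in L1, L2 and L3. LOC8262889 (3.02) completed the 10 genes with a ratio of at least 3, at 65.5, 34.3 and 58.8 FPKM in D1, D2 and D3 and 9.60, 4.99 and 10.7 in L1, L2 and L3. D2 was the lowest dwarf library in 6 of these 10 genes, and L2 the lowest high-stalk library in 9.

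**Figure D2:**
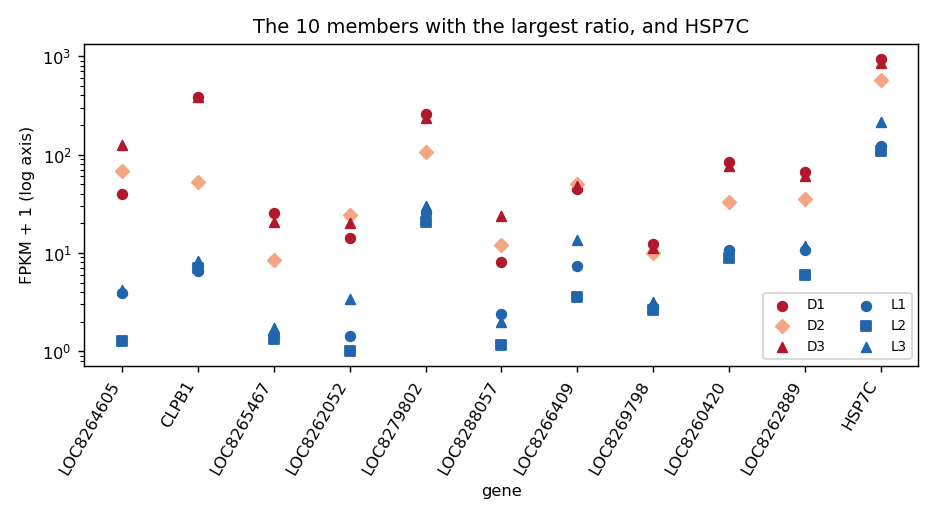
Level of the 10 members with the largest ratio, and of HSP7C, in each library, as FPKM + 1 on a log axis. Red symbols are 071113 (D2 as pale diamonds) and blue symbols are Zhuansihao; CLPB1 shows D2 at 51.8 FPKM far below D1 and D3 at 384 and 387, while in LOC8266409 all 3 dwarf libraries lie between 43.8 and 48.7.

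The ratio was at least 2 in 37 genes and under 2 in 79, with a median of 1.76. The fold between the means of the varieties ran from 1.79 to 43.6 with a median of 3.99, and the median difference on the log2(FPKM + 1) scale was 1.60, against -0.05 over the 14947 genes. Dwarf means ran from 2.75 to 790.3 FPKM with a median of 27.7. A dwarf mean of at least 100 FPKM was found in 25 genes, one from 10 to 100 in 66 and one under 10 in 25. The set thus reached from barely detected to abundant transcripts. In high-stalk libraries the median of the means was 7.93 FPKM.

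Summed over the 116 genes, the level was 10018.5 FPKM in D1, 6067 in D2 and 9533 in D3, or 1.68%, 1.01% and 1.63% of all FPKM of those libraries. The sums were 2348 in L1, 2102 in L2 and 2691 in L3, or 0.401%, 0.353% and 0.454%. D2 held more than any high-stalk library, which the rule fixes, and less than D1 and D3. The 10 genes with the highest dwarf means held 45.8% to 47.7% of the sum in dwarf libraries and 41.6% to 45.5% in high-stalk libraries. A few abundant genes therefore set much of these sums.

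After HSP7C, the highest dwarf mean was that of LOC8271848, with 669 FPKM in D1, 509 in D2 and 621 in D3 against 296, 265 and 284 in L1, L2 and L3. It was also abundant in Zhuansihao, and its means differed 2.13-fold. LOC8287907 was the member in which D2 exceeded its partners most, with 283 FPKM in D1, 576 in D2 and 270.2 in D3, and 85.3, 38.5 and 132 in L1, L2 and L3. D2 had 208% of the mean of D1 and D3 there.

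LOC8281547 had 471, 162 and 457 FPKM in D1, D2 and D3 and 45.5, 73.1 and 106 in L1, L2 and L3. LOC8284822 had 504, 108 and 381 FPKM in D1, D2 and D3 and 29.8, 39.0 and 60.7 in L1, L2 and L3. LOC8266982 had 401, 192 and 375 FPKM in D1, D2 and D3 and 29.7, 41.6 and 82.5 in L1, L2 and L3. These genes shared an order, with D2 the lowest dwarf library, L1 the lowest and L3 the highest high-stalk library. D2 had 34.9%, 24.4% and 49.4% of the mean of D1 and D3 in them.

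LOC8268250 had 409.8 FPKM in D1, 287 in D2 and 346 in D3, and 79.4, 60.1 and 117 in L1, L2 and L3. LOC8282162 had 383, 253 and 386 FPKM in D1, D2 and D3 and 163, 165 and 137 in L1, L2 and L3. LOC8262033 had 283, 184 and 284 FPKM in D1, D2 and D3 and 120.1, 122 and 84.5 in L1, L2 and L3. In LOC8282162 and LOC8262033, L3 was the lowest high-stalk library, unlike in the others of the 10.

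Some members were close to undetected in Zhuansihao. In 8 genes every high-stalk library was under 1 FPKM: LOC8265467, LOC8258058, LOC8264789, LOC8264586, LOC8277645, LOC8265165, LOC8271733 and LOC8286760. LOC8265467 had the highest dwarf mean of these, 17.2 FPKM, and LOC8264789 the lowest, 2.76 FPKM. A value of 0 was listed in L2 for LOC8262052, LOC8258058, LOC8264789 and LOC8278307 and in no other library. LOC8278307 differed from the rest of those, since L1 had 7.44 FPKM and L3 had 9.10 against the 0 in L2, with 25.1, 17.6 and 17.5 in D1, D2 and D3. FPKM holds no read counts, so no counting error can be attached to such a 0, and L2 was also the library of lowest relative depth.

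Within the dwarf variety, D2 was the lowest library in 83 of the 116 genes (71.6%), against 43.7% of the 14947 genes. It was the highest in 19 (16.4%), against 47.2%, and between D1 and D3 in 14. The rule does not set the order of the dwarf libraries among themselves. It does set a floor under the lowest, and the shares are given as a description without a test. The median level of D2 was 69.9% of the mean of D1 and D3. D2 had under 50% of that mean in 31 genes, from there to 0.8 times in 39, 0.8 to 1.2 times in 36 and more in 10. D1 and D3 differed by less than 1.2 times in 80 genes and by more than 2 times in 8.

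**Figure D3:**
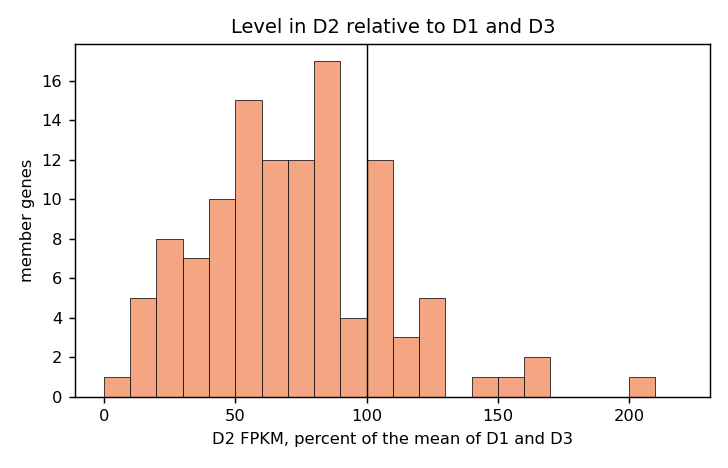
Number of members by the level of D2 as a percentage of the mean of D1 and D3, in bins of equal width. The line marks an equal level; the median is 69.9%, CLPB1 lies at 13.4% and LOC8287907 farthest right at 208%.

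On the log2(FPKM + 1) scale, D2 was nearer to the mean of D1 and D3 in 97 genes and nearer to the high-stalk mean in 19. The rule in part fixes this split, because it asks for D2 to lie above every high-stalk library by a margin. The split therefore does not show whether D2 behaves as a dwarf library. The genes with the lowest D2 share, singled out after their values were seen, included LOC107262006, with 169.5 FPKM in D1, 10.1 in D2 and 141 in D3 against 3.87, 3.25 and 3.45 in L1, L2 and L3. D2 had 6.50% of the mean of D1 and D3 there. LOC8286753 followed, with 45.2, 5.01 and 43.6 FPKM in D1, D2 and D3 and 0.936, 0.693 and 1.66 in L1, L2 and L3. LOC8281199 had 155, 25.3 and 171 FPKM in D1, D2 and D3 and 12.5, 13.0 and 8.34 in L1, L2 and L3. With CLPB1 and LOC8271733 these were the 5 genes with D2 shares from 6.50% to 15.5%, all with D2 above every high-stalk library as the rule requires.

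At the other end, the members with D2 as the highest dwarf library and the largest ratios were LOC8262052 and LOC8266409, described above, then LOC8265370, LOC8287907 and LOC8280585. LOC8265370 had 9.28, 13.6 and 13.0 FPKM in D1, D2 and D3 and 2.77, 0.810 and 2.65 in L1, L2 and L3. LOC8280585 had 27.0, 31.1 and 29.4 FPKM in D1, D2 and D3 and 7.38, 5.01 and 13.7 in L1, L2 and L3. L2 was the lowest high-stalk library in all 5. LOC8280909, chosen after its values were seen, was the gene with the smallest SD relative to its mean in the dwarf libraries among those with a ratio over 2, at 45.7, 46.4 and 47.1 FPKM in D1, D2 and D3 and 17.3, 17.3 and 14.6 in L1, L2 and L3. The variety means of this gene were 46.4 ± 0.704 and 16.4 ± 1.59 FPKM (SD, n = 3 each).

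**Figure D4:**
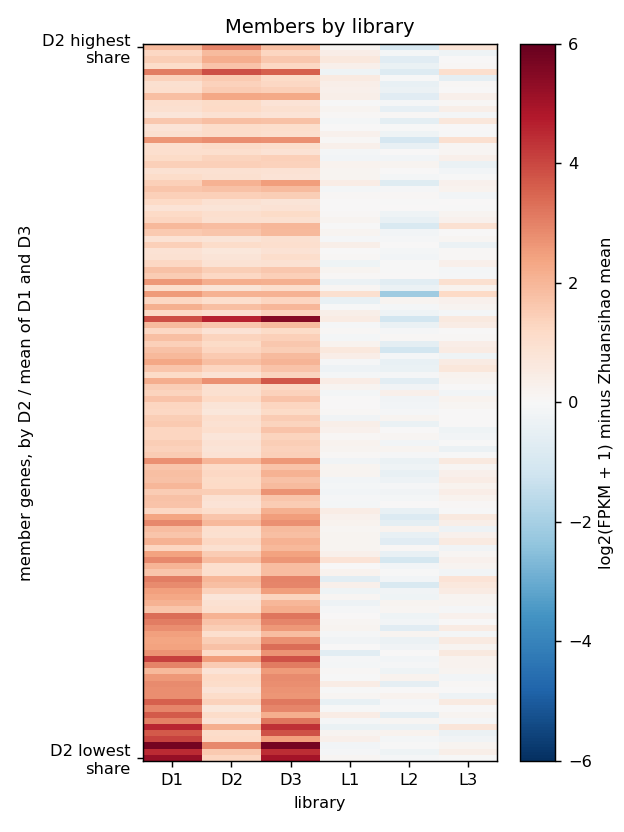
Level of the 116 members in each library, as log2(FPKM + 1) minus the mean of the Zhuansihao libraries of that gene, ordered by the level of D2 relative to D1 and D3. D1 and D3 have like colours in most rows (under 1.2 times apart in 80 genes), D2 fades towards the bottom, and L2 is the palest or bluest high-stalk column in many rows (lowest in 72 genes).

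Within the high-stalk variety, L3 was the highest library in 60 genes (51.7%), L1 in 41 (35.3%) and L2 in 15 (12.9%). Over the 14947 genes these shares were 27.7%, 40.9% and 31.4%. L2 was the lowest in 72 genes (62.1%), against 32.3% of all. The highest high-stalk value was under 2 times the lowest in 70 of the 116 genes and under 1.2 times in 17. L3 was thus more often, and L2 less often, the library nearest to the dwarf values.

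The full order with D2 lowest of the dwarf libraries, L3 highest and L2 lowest of the high-stalk libraries was held by 33 members (28.4%), HSP7C among them. It was held by 793 (5.31%) of the 14947 genes. The order joins the most frequent places of D2, L3 and L2 among the members, so these shares are no separate result. CLPB1 shared D2 as the lowest and L3 as the highest, but had its lowest high-stalk value in L1. Genes of one library share its depth and RNA, so these shares carry no p-value. Among the 68 genes lower in all dwarf libraries, D2 was the highest dwarf library in 29 (42.6%), close to its share over all genes (47.2%).

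**Figure D5:**
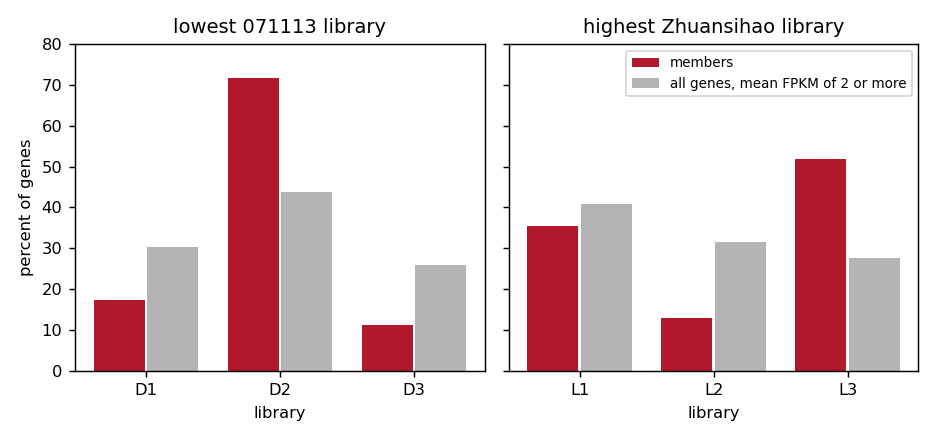
Percentage of genes in which each library is the lowest of 071113 (left) or the highest of Zhuansihao (right), for the 116 members (red) and for all 14947 genes with a mean of at least 2 FPKM (grey). D2 is lowest in 71.6% of members against 43.7% of all genes, and L3 highest in 51.7% against 27.7%.

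The rule cut through a continuous range of values. Just inside the ratio lay LOC8289716, LOC8275276 and LOC8276095, with ratios from 1.501 to 1.509. Just outside lay LOC8286297, LOC8269123 and LOC8267111, with ratios from 1.497 to 1.4999. LOC8269123 had 153, 41.3 and 146 FPKM in D1, D2 and D3 and 21.8, 25.0 and 27.2 in L1, L2 and L3, and only D2 kept it out. Just inside the floor of 2 FPKM were LOC8271733, LOC8277645 and LOC8286475, with dwarf minima of 2.14, 2.20 and 2.20. Just outside were LOC8289765, LOC8276902 and LOC8276225, with dwarf minima of 1.998, 1.993 and 1.915.

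Some members were close neighbours in the genome. In the gene order of the RefSeq table, 115 members could be placed, and 19 of them (16.5%) had another member within the next 5 protein-coding genes, in 10 pairs. Among the placed genes lower in all dwarf libraries it was 10 of 64 (15.6%). By the order of the authors' ID numbers in place of the RefSeq order, the members in pairs also numbered 19. The lower genes in pairs then numbered 6. The member pairs were not all the same, since LOC8270218 with LOC8270226 and LOC8272763 with LOC8273685 were near by RefSeq order alone. Members were directly adjacent in 3 pairs, and the annotated spans of no pair overlapped. The share for other gene sets of this size was not computed, so whether members lie together more often than other genes was not tested. Whether neighbouring genes shared reads was not checked.

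CLPB1 itself was adjacent to another member, LOC8284440. That gene had 11.2, 8.86 and 15.2 FPKM in D1, D2 and D3 and 4.97, 3.98 and 3.14 in L1, L2 and L3. Its D2 was 67.3% of the mean of D1 and D3, far from the 13.4% of CLPB1. The adjacent LOC8266981 and LOC8266982 were both well expressed, the former with 60.2, 44.6 and 43.9 FPKM in D1, D2 and D3 and 6.97, 5.53 and 18.9 in L1, L2 and L3. L3 was the highest high-stalk library in both.

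The remaining adjacent pair was LOC8284100 and LOC8284101. LOC8284100 had 28.1, 32.8 and 28.1 FPKM in D1, D2 and D3 and 15.6, 9.67 and 18.0 in L1, L2 and L3. LOC8284101 had 27.8, 25.7 and 29.8 FPKM in D1, D2 and D3 and 14.3, 14.1 and 16.0 in L1, L2 and L3. Both had L3 as the highest and L2 as the lowest high-stalk library. As a fold they lay farthest apart in L2, while in FPKM they differed most in D2.

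The other pairs were LOC8286470 with LOC8286475 and LOC8286475 with LOC8286477, LOC8287908 with LOC8287907, LOC8270218 with LOC8270226, LOC8271733 with LOC8271732, LOC8272763 with LOC8273685, and LOC8260752 with LOC8260757. Neighbours could differ widely in level, as LOC8287908 (5.44, 3.23 and 5.41 FPKM in D1, D2 and D3) and LOC8287907 show. In that pair D2 was the lowest dwarf library for LOC8287908 and the highest for LOC8287907. Of 171 genes directly next to a member, not members themselves and with a mean of at least 2 FPKM, 15 (8.77%) had every dwarf library above every high-stalk library, against 7.31% of the 14947 genes.

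The genes the study names by pathway lay outside the set apart from the chaperones. Of 34 IDs it names, 33 were in the table and 2 were members, both of the 2 chaperones. Members numbered 0 of 3 cell wall genes, 0 of 5 lignin genes, 0 of 3 expansins, 0 of 8 cell cycle genes and 0 of 11 hormone pathway genes, and the actin used as a reference was no member. The study picked most of these genes on D1 and D3 of the same libraries, so their counts are no independent evidence. It reported the expansins, the cell cycle genes and several auxin genes as lower in the dwarf variety, and genes lower there could hardly meet the rule. The auxin response factor (ARF) genes LOC8259066 and LOC8274635 are among those it reported as lower. In the values used here both were higher on average in the dwarf variety, with log2 fold changes of 0.32 and 1.05. LOC8274635 had 46.4, 20.1 and 41.1 FPKM in D1, D2 and D3 and 16.6, 11.1 and 21.2 in L1, L2 and L3. The rule picked only 0.615% of all rows, so finding 0 members in lists this short says nothing about a pathway. Of the 31 non-members, 29 passed the filter on low values, and limma over all 6 libraries called 0 of them (adjusted p from 0.326 to 0.973). When p was not adjusted (p below 0.05), 4 of the 29 were higher and 2 lower. Beside them, 834 of the 16236 genes tested were higher and 677 lower at that bound. The median log2 fold change of the 29 was -0.38, against -0.05 over all genes tested, but this pools lists of opposite sign. The median was 1.62 for the cell wall genes and 1.31 for the lignin genes. It was -1.31 for the expansins, -0.77 for the hormone pathway genes and -0.53 for the cell cycle genes. D2 was the lowest dwarf library in every cell wall and lignin gene and the highest in every expansin and cell cycle gene. In the cell wall genes PME45 and PGLR and the lignin gene PER, D2 lay below every high-stalk library. In the expansins EXLA2 and EXPA4 it lay above every one. The medians of these lists thus rest mainly on D1 and D3.

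In 4 of the 31 non-members (12.9%) every dwarf library lay above every high-stalk library without reaching the rule, against 7.45% of all rows. The NAC gene LOC8265938, a transcription factor of a family that includes switches of secondary wall formation, had 139 FPKM in D1, 20.0 in D2 and 130 in D3 against 15.1, 13.2 and 16.0 in L1, L2 and L3, a ratio of 1.24. It resembled CLPB1 in the low value of D2. The others were the peroxidase LOC8289058 and the phenylalanine ammonia-lyase genes LOC8272514 and LOC8272515, enzymes of lignin and phenylpropanoid synthesis, with ratios of 1.29, 1.29 and 1.09 and dwarf minima, all in D2, of 1.54, 1.73 and 0.269 FPKM. Each of these fell under the floor of 2 FPKM as well as under the ratio.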

How the data were processed

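Poly(A) RNA of 3 internode libraries per variety was sequenced by the authors on the Illumina HiSeq platform, and the deposited table holds FPKM per gene and library, with replicates not pooled. The aligner, the counting tool and the build of the genome were not given in the sources used here. FPKM gives no read counts, so the depth behind a value is unknown and the DESeq2 step of the paper was not repeated. FPKM was used as deposited for the rule (1 added before the ratio) and as log2(FPKM + 1) elsewhere. Over 18875 rows with 18781 distinct names, 15 names stood on 109 rows, none of them members. limma 3.58.1 (R 4.3.3, mean-variance trend, Benjamini-Hochberg adjustment) tested the 16236 genes with at least 1 FPKM in at least 2 libraries, and its p-values measure only the spread between these libraries. It was tested on simulated data in which genes and libraries varied independently, so the simulation does not cover the outlying D2. The castor RefSeq table (assembly ASM1957865v1) matched 18431 rows and served for names and gene order alone. Sequence motifs, protein signatures and lists by description were not used here. Counts and plots were made with matplotlib 3.10.9, numpy 2.4.6 and pandas 2.3.3 in Python 3.11.15.

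Members and lists were chosen with earlier results of these data known. Genes named in the text are members named in the paper, the 10 largest ratios, the 10 highest dwarf means, the 3 genes on each side of a threshold and the 5 largest ratios with D2 highest. Named after their values were seen were the members with low D2 shares, with high-stalk values under 1 FPKM or at 0, and those with a neighbouring member, LOC8280909, and the 4 non-members without overlap. Alternatives were other added values, ratios, floors, scalings and filters, a replicate block, and each library left out in turn.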

Additional observations from a re-analysis of the deposited data

How the results depend on the processing

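The number of members stayed between 93 and 139 with 0.5 or 0.1 FPKM added before the ratio, a floor of 1 or 5 FPKM, FPKM rescaled to an equal sum (135, of which 112 were among the 116), median-ratio scaling (122, of which 110 were), or repeated names left out. With a ratio of at least 2 it was 37 (26 for the rule turned round), and with at least 3 it was 10 (8). Leaving out 1 library gave 128 to 928 members, 928 without D2, 216 without L1 and 233 without L3, and 82 to 1038 genes for the rule turned round, 1038 without D2, 257 without L1 and 136 without L3. Without both D2 and L1, an alternative chosen after the data were seen, the numbers were 1038 and 1287. A rule over fewer libraries can only gain genes.

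The share of members with D2 the lowest dwarf library ranged from 60% to 75.3% over the alternatives that keep all libraries. The share with L3 highest ranged from 46.8% with 0.1 FPKM added to 80% at a ratio of at least 3, where only 10 genes remained. Neighbouring members numbered 6 with the next gene alone, and 19 with the order of the authors' ID numbers, both chosen after the data were seen.

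The 2 genes that limma called over all 6 libraries became 1 with a mean of at least 5 FPKM, and 0 to 403 with a library left out, 403 without D2 (214 higher, 189 lower) and 0 without any other. Leaving out D1 or D3 leaves D2 in a pair. A replicate block gave 0 calls (unadjusted p below 0.05 in 600 higher and 472 lower genes). Deviations from the variety means correlated at -0.47 between D1 and L1, -0.55 between D2 and L2 and 0.33 between D3 and L3, across genes. The value between D2 and L1 was 0.63. Deviations within a variety depend on each other and on the outlying D2. They therefore cannot show whether the replicate numbers pair the samples.

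Promoter motif and protein signature alternatives were not run. Depth is unknown beyond its ratio between libraries, so low values carry no counting error.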
